A study of Mus musculus with 4 samples.

Results

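Xcl1 and Xcr1 are the ligand and the receptor of the C chemokine system, followed here as 2 of the 32285 genes counted in leukocytes of the healthy mouse liver. The pair was chosen by measured values, namely which lymphoid cells hold the ligand and which cells hold the receptor, so their distribution over cell classes is described and not tested. Single-cell libraries were made from CD45+ cells of C57BL/6 mice carrying PA-GFP, a fluorescent protein switched on by light, after photoactivation of a zone of the liver. The labels name 2 libraries PV, for the periportal zone that receives gut blood first, and 2 libraries CV, for the pericentral zone from which blood drains. All 4 share the strain, the transgene and the photoactivation, and the labels give no age and do not say whether the libraries came from separate mice or pools, so p-values measure the spread between libraries, which may be technical.

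XCL1, also called lymphotactin, is a small chemokine that differs from most others in having a single disulfide bond. It is made by natural killer (NK) cells, by type 1 innate lymphoid cells (ILC1) and by activated or innate-like T cells. XCR1 is its G protein-coupled receptor and in mice marks type 1 conventional dendritic cells (cDC1), which take up dead cells and present their antigens to CD8 T cells.

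Both genes lie on the minus strand of GRCm38. Xcl1 (ENSMUSG00000026573) spans chr1:164931644-164935527 with 3 exons, and Xcr1 (ENSMUSG00000060509) spans chr9:123852315-123862029 with 2 exons. The noncoding gene Gm20743 overlaps Xcl1 on the other strand. It had 12 unique molecular identifiers (UMIs, each standing for 1 captured molecule) in 11 of the 1593 cells, against 4560 for Xcl1. Whether the counting used strand is not given in the sources used here. The promoters are shown because the genes most like Xcl1 across the cell classes include Tbx21, the gene of the T-box factor T-bet. Each sequence holds the 250 bases before the RefSeq start, at chr1:164935523-164935772 for Xcl1 and chr9:123862030-123862279 for Xcr1 (GRCm38.p6, minus strand), read 5′ to 3′ along the gene. Capitals mark the T-box core GGTGTGA.
Xcl1: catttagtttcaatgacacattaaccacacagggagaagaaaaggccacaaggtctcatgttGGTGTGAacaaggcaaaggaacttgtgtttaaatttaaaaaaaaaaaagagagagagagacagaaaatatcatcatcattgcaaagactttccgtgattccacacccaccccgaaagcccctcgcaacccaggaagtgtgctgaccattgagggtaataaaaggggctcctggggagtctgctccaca
Xcr1: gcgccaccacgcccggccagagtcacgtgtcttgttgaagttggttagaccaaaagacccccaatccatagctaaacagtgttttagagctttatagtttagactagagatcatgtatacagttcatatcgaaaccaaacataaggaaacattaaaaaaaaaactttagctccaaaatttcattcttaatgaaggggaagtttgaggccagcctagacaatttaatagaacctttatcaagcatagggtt
The core was present in 1 copy before Xcl1, beginning 188 bases before the start, and in 3.33% of 32851 promoters of the same length searched on both strands. It was not found before Xcr1. The letters TGANTCA, an AP-1 site that BATF dimers bind, and GAAANNGAA, a repeat bound by interferon regulatory factors, were found in neither window, against 6.75% and 7.13% of all promoters. The 3 motifs were chosen with these sequences in view, and a match is a description of letters only.

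After filtering, 333 and 512 cells remained in PV replicates 1 and 2, and 372 and 376 in CV replicates 1 and 2, with medians of 5369 to 6317.5 UMIs per cell. Of 1939 distinct barcodes, 282 occurred in more than 1 library, and each was kept only in the library with at least 70% of its UMIs. Cells were given a class by counting detected markers, with Xcl1 and Xcr1 in no marker list, which placed 1531 of the 1593 cells. All 8 markers of T cells, of NK/ILC1 cells and of cDC1 were each present in at least 10% of the cells of their class in every library. Levels are given in CPM, the counts of a gene scaled to a common total of UMIs of the class. NK/ILC1 cells also held T cell markers, which summed to 2722 and 2240 CPM in PV, against 3245 and 3485 CPM in CV. In T cells these markers summed to 7155 and 6879 CPM in PV, against 7312 and 6602 CPM in CV. Whether T cells entered the NK/ILC1 gate was not tested. Counts of markers of another lineage, used below, do not flag this, since they take T and NK/ILC1 cells as the same lineage.

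Xcl1 was found almost wholly in lymphocytes with T or NK features. T and NK/ILC1 cells together held 99.5% and 97.9% of all Xcl1 UMIs in the PV libraries, against 99.4% and 97.6% in the CV libraries. A UMI of Xcl1 was detected in 572 cells, of Xcr1 in 90 cells, and of both in 4 cells. NK/ILC1 cells had the highest level, at 3528 and 1635 CPM in PV, against 3676 and 2825 CPM in CV, with a mean of 2916 ± 931 (SD, n = 4 libraries). T cells followed at 448 and 393 CPM in PV, against 624 and 827 CPM in CV, with a mean of 573 ± 196 (SD, n = 4), and the ranges of these classes did not overlap. T cells held 77.1% and 69.4% of all Xcl1 UMIs in PV, with 202 and 203 T cells beside 11 and 23 NK/ILC1 cells. They held 46.7% and 55.0% in CV, with 165 and 155 T cells beside 40 and 47 NK/ILC1 cells.

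The other named classes had at most 7 Xcl1 UMIs in a library. B cells, which are not known to make this chemokine, had an Xcl1 UMI in 0 of 19 and 1 of 48 cells in PV, against 0 of 34 and 0 of 60 cells in CV, at median depths of 3492.5 to 4074 UMIs. A count of 0 of 60 (3 counts of 60) allows a share of up to 5% of cells with a UMI at this depth, which is no limit on cells that express the gene. Kupffer cells, the resident macrophages of the liver sinusoids, had 0 and 4.30 CPM in PV, against 16.0 and 5.88 CPM in CV. Neutrophils, the shallowest of the larger classes, had 0 and 81.9 CPM in PV, against 0 and 24.2 CPM in CV, from 4 UMIs in 2 of 13 cells of PV replicate 2 and 1 UMI in CV replicate 2. The cells left without a class had 20.5 and 41.8 CPM in PV, against 16.3 and 287 CPM in CV, the last from 35 UMIs in 4 of 16 cells. The cDC1 held 1 Xcl1 UMI, in CV replicate 2. Below T cells the classes overlapped in level, so their order is not resolved at this depth.

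**Figure D1:**
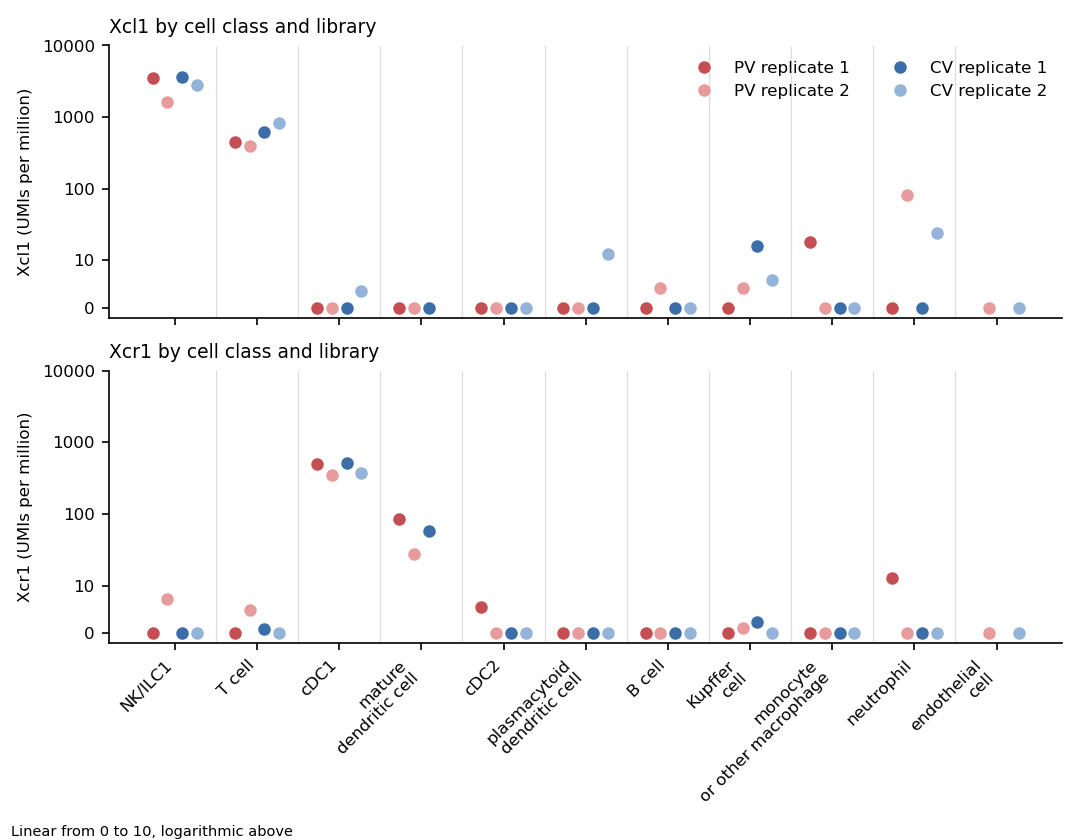
Level of Xcl1 (top) and Xcr1 (bottom) in CPM, on an axis that is linear from 0 to 10 and logarithmic above, for each cell class (horizontal axis) and library (colour); each point is the sum over the cells of a class in 1 library. Xcl1 is high in NK/ILC1 cells (1635 to 3676 CPM) and T cells (393 to 827 CPM), and Xcr1 is high in cDC1 (355 to 513 CPM).

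Detection followed the same order within each library, though closely in PV replicate 1, once depth was made equal by drawing every cell down to 2500 UMIs. Among NK/ILC1 cells of PV, 3 of 8 (37.5%, 95% Wilson interval 13.7 to 69.4) and 17 of 23 cells (73.9%, 53.5 to 87.5) then held an Xcl1 UMI, against 32 of 35 (91.4%, 77.6 to 97.0) and 40 of 44 (90.9%, 78.8 to 96.4) in CV. In T cells the shares were 30.5% of 190 and 41.0% of 200 in PV, against 55.7% of 158 and 42.1% of 152 in CV. Without thinning the shares were 54.0% and 63.1% in PV T cells, and 70.9% and 58.7% in CV T cells. Those of NK/ILC1 cells were then 45.5% and 87.0% in PV, against 87.5% and 89.4% in CV. In PV replicate 1 the order was thus reversed without thinning, with Xcl1 in 5 of 11 NK/ILC1 cells. Thinned B cells showed none in any library. Wilson intervals and the limits on counts of 0 cover counting error only.

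Within the NK/ILC1 gate, cells with more ILC1 than NK genes held most of the ligand and were also most of the cells. The ILC1 side is marked by Cxcr6, Cd200r1, Il7r, Tmem176a, Itga1 and Ltb, and the NK side by Eomes, Itga2, Klra8, Klra4, S1pr5 and Itgam. On the ILC1 side, 4 of 7 and 16 of 17 cells had Xcl1 in PV, against 34 of 37 and 36 of 36 in CV. These cells carried 174 and 186 of the 175 and 227 Xcl1 UMIs of the gate in PV, against 705 and 656 of the 708 and 697 in CV. On the NK side, 0 of 3 and 3 of 4 cells had Xcl1 in PV, against 0 of 2 and 3 of 8 in CV, numbers too small to place a share closely. The level was 4683 and 1699 CPM on the ILC1 side in PV, against 3757 and 3345 CPM in CV, and 0 and 564 CPM on the NK side in PV, against 0 and 414 CPM in CV. The ILC1 side was thus above the NK side in all 4 libraries, though close to the whole gate in PV replicate 2 and CV replicate 1. The NK-side levels of 0 rest on 3 cells of PV replicate 1 and 2 cells of CV replicate 1. Their median depths were 4905 and 1886.5 UMIs, so these levels do not show that Xcl1 was absent. The remaining 1 to 3 cells per library had as many genes of one side as of the other, and those of PV replicate 2 were at 3570 CPM, above its ILC1 side.

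T cells were divided by Cxcr6, the receptor that holds lymphocytes in the liver sinusoids, and by Zbtb16 or Klrb1c, which mark natural killer T (NKT) cells. Cxcr6 T cells with NKT genes had Xcl1 in 78 of 126 and 103 of 136 cells in PV, against 92 of 117 and 67 of 97 in CV. Cxcr6 T cells without these genes had it in 25 of 55 and 22 of 32 cells in PV, against 15 of 24 and 15 of 24 in CV. Naive-like T cells, which lack Cxcr6 and have at least 2 genes of a short list of naive and recirculation markers that includes Lef1, Ccr7 and S1pr1, had it in 1 of 8 and 0 of 27 cells in PV, against 0 of 9 and 2 of 23 in CV. The naive-like cells thus carried 1, 0, 0 and 5 Xcl1 UMIs per library, at median depths of 5593 to 7109 UMIs, close to those of the Cxcr6 groups (5342 to 6692). NKT-gene cells alone accounted for 63.3% and 52.1% of all Xcl1 UMIs in the PV libraries, against 28.0% and 22.4% in the CV libraries.

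By coreceptor, CD4 T cells had Xcl1 in 35 of 62 and 22 of 40 cells in PV, against 38 of 55 and 17 of 34 in CV. CD8 T cells had it in 4 of 11 and 4 of 16 cells in PV, against 2 of 4 and 5 of 24 in CV. Most T cells had no coreceptor transcript (Cd4, Cd8a or Cd8b1) or those of both kinds, and of these cells 53.9% and 69.7% had Xcl1 in PV, against 72.4% and 71.6% in CV.

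**Figure D2:**
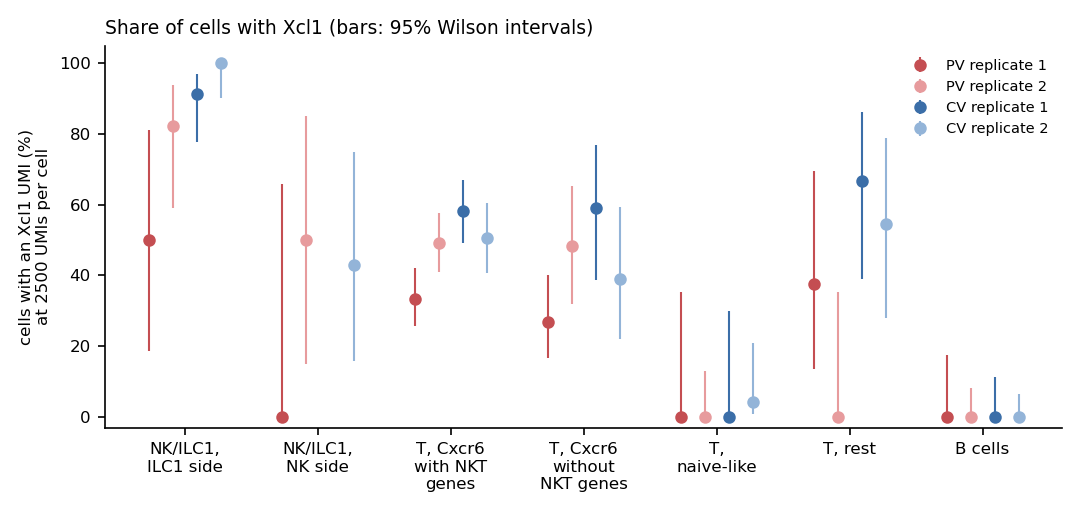
Percentage of cells with at least 1 Xcl1 UMI after every cell was drawn down to 2500 UMIs (vertical axis), for divisions of the NK/ILC1 and T cell gates and for B cells (horizontal axis), by library (colour), with 95% Wilson intervals. Shares on the ILC1 side run from 50% to 100%, those of Cxcr6 T cells with NKT genes from 33.3% to 58.3%, and those of naive-like T cells from 0 to 4.35%; NK-side cells of CV replicate 1 were all shallower than 2500 UMIs and have no point.

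Xcl1 was unevenly spread among the cells that had it. In CV replicate 2 a single CD8 T cell with 55701 UMIs in all held 423 of the 900 Xcl1 UMIs of the T cells (47.0%), and the next cell held 43. This cell also had 3 markers of another lineage. In PV replicate 1 a CD4 T cell with NKT genes held 183 of 603 Xcl1 UMIs (30.3%), beside 218 UMIs of Csf2, 93 of Ccl4 and 22 of Ifng, which encode a myeloid growth factor, a chemokine and interferon gamma. In the other libraries the top T cell held 52 of 553 UMIs in PV replicate 2 and 67 of 628 in CV replicate 1. Among NK/ILC1 cells of PV replicate 1, 2 cells with 87 and 82 UMIs made up nearly all of the 175. The highest NK/ILC1 cell held 15.9% of the class's Xcl1 UMIs in PV replicate 2, and 10.6% and 14.3% in the CV libraries.

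**Figure D3:**
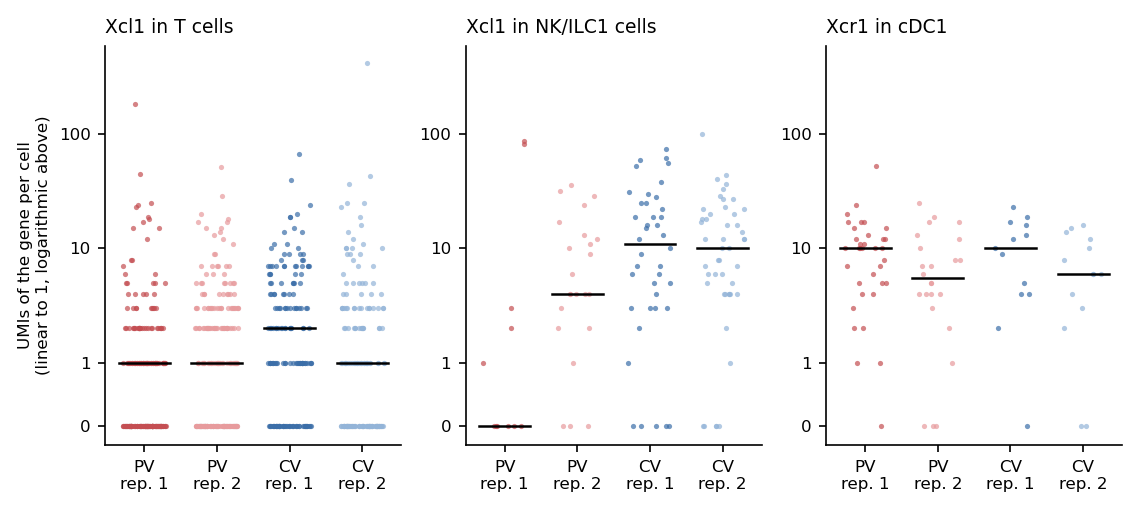
UMIs of the gene in single cells (vertical axis, linear from 0 to 1 and logarithmic above) by library (horizontal axis): Xcl1 in T cells (left) and NK/ILC1 cells (middle), Xcr1 in cDC1 (right); each point is a cell and the line is the median over the cells of a library. Single T cells with 183 Xcl1 UMIs in PV replicate 1 and 423 in CV replicate 2 stand far above the others, whereas no cDC1 has more than 53 Xcr1 UMIs.

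Between the zones, T cells of both PV libraries had a lower level of Xcl1 than those of both CV libraries, but the difference did not pass the test across genes. The sums were 603 and 553 UMIs in PV, against 628 and 900 in CV. The log2 fold change of PV over CV was -0.83 ± 0.16 (SE), with an unadjusted p of 0.000462 and an adjusted p of 1 in edgeR's quasi-likelihood test. Xcl1 had the smallest p of the 7916 genes tested, of which 0 passed (0%), 211 had an unadjusted p under 0.05 and DESeq2 called 0. The next 4 genes by p also missed the test and were Fam199x (2.77 ± 0.59), the myeloid growth factor gene Csf2 (1.87 ± 0.40), the hepatocyte gene Alb (1.85 ± 0.39) and the actin-capping gene Capg (1.15 ± 0.28). The Xcl1 difference passed edgeR with PV replicate 1 (-0.93), CV replicate 1 (-1.04) or CV replicate 2 (-0.60) left out, in fits that had 1 residual degree of freedom.

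The size of the T cell difference rested on few cells. Without the T cell with the most Xcl1 in each library, levels were 315 and 357 CPM in PV, against 561 and 462 CPM in CV, and the log2 fold change was -0.66. With T cells that held 3 or more markers of another lineage left out, levels were 485 and 412 CPM in PV, against 639 and 473 CPM in CV, which overlapped, and the log2 fold change was -0.35 (edgeR adjusted p = 1, unadjusted 0.0509). Within Cxcr6 T cells with NKT genes the zones overlapped too, at 546 and 422 CPM in PV, against 490 and 546 CPM in CV. They did not overlap in Cxcr6 T cells without NKT genes, at 272 and 584 CPM in PV, against 674 and 2479 CPM in CV, where CV replicate 2 holds the cell with 423 UMIs. Nor did they in the 8 to 15 T cells per library that lack Cxcr6 and are not naive-like, at 353 and 94.4 CPM in PV, against 2506 and 899 CPM in CV, from 18 and 4 UMIs in PV, against 168 and 53 in CV. The share of T cells with an Xcl1 UMI at equal depth was 35.8% ± 7.41 in PV, against 48.9% ± 9.61 in CV (SD, n = 2 each). An exact two-sided permutation test gave p = 0.333 for this share, the smallest value that 2 libraries against 2 allow. The difference in share, -13.1 percentage points, was -7.90 without PV replicate 1, -6.34 without CV replicate 1, -19.9 without CV replicate 2 and -6.30 without thinning, where the zones overlapped.

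In NK/ILC1 cells the level of Xcl1 overlapped between the zones, while the share of positive cells was lower in both PV libraries. The sums were 175 and 227 UMIs from 11 and 23 cells in PV, against 708 and 697 UMIs from 40 and 47 cells in CV. The log2 fold change of the level was -0.40 ± 0.26 (SE), with an edgeR adjusted p of 0.855. Without the cell with the most Xcl1 in each library it was -0.89, without cells holding 3 or more markers of another lineage it was -0.70, and without PV replicate 2 it was 0.024. The share of positive cells at equal depth was 55.7% ± 25.7 in PV, against 91.2% ± 0.367 in CV (SD, n = 2 each), without overlap (exact two-sided permutation p = 0.333). The difference of -35.5 percentage points was -17.3 without PV replicate 1, -53.7 without PV replicate 2 and -22.2 without thinning. Without thinning the shares were 45.5% and 87.0% in PV, against 87.5% and 89.4% in CV. PV replicate 2 was then close to the CV libraries, and the difference lay mostly with the 11 cells of PV replicate 1. In this class 4 of 2808 genes passed edgeR's test (0.142%), and Xcl1 was not among them.

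The 4 genes past the test in NK/ILC1 cells were the MHC class II genes H2-Eb1 and Cd74 and the lysosomal protein gene Plac8, higher in PV, and the T cell receptor gene Trbc1, lower in PV. H2-Eb1 had 60.5 and 1455 CPM in PV, against 10.4 and 16.2 CPM in CV, so that PV replicate 2 stood far above the rest. None of the 4 passed when cells with 3 or more markers of another lineage were left out (0 of 2524 genes, 133 with an unadjusted p under 0.05), and DESeq2 called 0. Ccl5, a chemokine of cytotoxic lymphocytes, had a log2 fold change of -0.78 ± 0.17 and just missed the threshold (edgeR adjusted p = 0.0520). Of the 11 tested lymphocyte cytokine genes in this class, 8 lay below 0 and none passed.

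Summed over all cells, Xcl1 was at 285 and 196 CPM in PV, against 559 and 616 CPM in CV, again without overlap. The log2 fold change was -1.25 ± 0.27 (SE), with an edgeR adjusted p of 1 and an unadjusted 0.00477. None of the 10502 genes tested passed (0%), 230 had an unadjusted p under 0.05 and DESeq2 called 9, with Xcl1 at an adjusted p of 0.0590 in DESeq2, while without the gene filter Xcl1 and Xcr1 both passed edgeR. Xcr1 over all cells was at 136 and 47.2 CPM in PV, against 58.3 and 38.4 CPM in CV, which overlapped, with a log2 fold change of 0.97 ± 0.55 (edgeR adjusted p = 1). It was -0.088 without PV replicate 1 and 1.58 without PV replicate 2. In such sums, fewer cells of a type and less RNA per cell cannot be told apart. NK/ILC1 cells made up 3.30% and 4.49% of cells in PV, against 10.8% and 12.5% in CV, and cDC1 made up 10.5% and 4.69% in PV, against 3.49% and 3.72% in CV.

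Xcr1 was held by cDC1. They carried 98.7% and 94.3% of all Xcr1 UMIs in the PV libraries, against 95.7% and 100% in the CV libraries. An Xcr1 UMI was present in 34 of 35 and 21 of 24 cDC1 in PV, against 12 of 13 and 12 of 14 in CV. The cDC1 had median depths of 18643.5 to 23414 UMIs. Of these cells, 18 of 35 and 15 of 24 in PV, against 5 of 13 and 10 of 14 in CV, held 3 or more markers of another lineage. The part of such cells in the depth was not tested. Drawn down to 2500 UMIs, 54.3% and 62.5% of all cDC1 had Xcr1 in PV, against 69.2% and 50% in CV. The median over the positive cells was 10 and 7 UMIs per cell in PV, against 11 and 7 in CV.

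The level of Xcr1 in cDC1 did not differ detectably between the zones. The sums were 369 and 181 UMIs in PV, against 134 and 102 UMIs in CV. This gave 504 and 355 CPM in PV, against 513 and 373 CPM in CV, and the zones overlapped. The log2 fold change was -0.00049 ± 0.25 (SE; edgeR adjusted p = 1), with values from -0.32 to 0.27 when 1 library was left out. Among 4241 genes in cDC1, 0 passed (0%), 263 had an unadjusted p under 0.05 and DESeq2 called 2. Kupffer cell markers summed to 8.19 and 886 CPM in cDC1 of PV and 3.83 and 14.6 CPM in CV, and the complement gene C1qa had the smallest p (log2 fold change 6.27 ± 1.02, adjusted p = 0.211). The part of these markers in the comparison was not tested.

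Other cells rarely held Xcr1. Mature dendritic cells, which have switched on Ccr7 and Fscn1 and leave the tissue, had it in 1 of 1 and 1 of 4 cells in PV, against 1 of 3 in CV replicate 1, with 2 or 3 UMIs each. The 3 positive cells also had 6, 4 and 4 of the 8 cDC1 markers. A T cell of PV replicate 2 had 7 Xcr1 UMIs and 1 Xcl1 UMI, with 7 cDC1 markers beside 8 T cell markers and 23689 UMIs in all. It was 1 of the 4 cells with both genes, and the other three each held a single UMI of one of the pair. B cells had no Xcr1 UMI in any library, where 0 of 60 cells allows up to 5% of cells with a UMI at their depth. The other classes held at most 1 UMI per library, apart from the single T and mature dendritic cells above.

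No gene passed between cDC1 with and without an Xcr1 UMI at equal depth. This comparison had 3 libraries with at least 5 cells on both sides, and 332 genes could be tested, of which 0 passed (0%), 11 had an unadjusted p under 0.05 and DESeq2 called 0. Apoe, a lipid carrier, had the smallest p, with a log2 fold change of -2.35 ± 0.37 (edgeR adjusted p = 0.108). Without PV replicate 1, 2 genes passed, and without CV replicate 2, 5 passed.

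The number of Xcl1-positive lymphocytes per Xcr1-positive cDC1 was lower in both PV libraries, but the zones overlapped when shared barcodes were kept. An exact permutation test of 2 libraries against 2 gives no p below 0.333, so it cannot decide on a difference. The numbers are counts of cells per library and do not show which cells were neighbours. There were 114 and 148 Xcl1-positive lymphocytes in PV, against 152 and 133 in CV, which overlapped. Xcr1-positive cDC1 numbered 34 and 21 in PV, against 12 and 12 in CV, which did not overlap. Per Xcr1-positive cDC1 this gave 3.35 and 7.05 in PV, against 12.7 and 11.1 in CV, without overlap. The means were 5.20 ± 2.61 in PV, against 11.9 ± 1.12 in CV (SD, n = 2 each; exact two-sided permutation p = 0.333). Counted as Xcl1 UMIs of lymphocytes per Xcr1-positive cDC1, the values were 22.9 and 37.1 in PV, against 111 and 133 in CV. The ratio depended on the shared barcodes: with them kept it was 3.53 and 6.21 in PV, against 7.57 and 5.41 in CV, which overlapped (exact two-sided permutation p = 0.667). The settings also differ in depth, most of all in CV. With shared barcodes removed, the median depths of all cDC1 were 23414 and 21486.5 UMIs in PV, against 21283 and 18643.5 in CV. With them kept, the medians were 16518 and 15554 UMIs in PV, against 1925 and 1916 in CV. All cDC1 then numbered 51 and 38 in PV, against 43 and 47 in CV. Xcr1-positive cDC1 then numbered 40 and 28 in PV, against 23 and 27 in CV. UMIs per cDC1 were then 22.4 and 31.5 in PV, against 61.9 and 60.6 in CV, still apart.

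**Figure D4:**
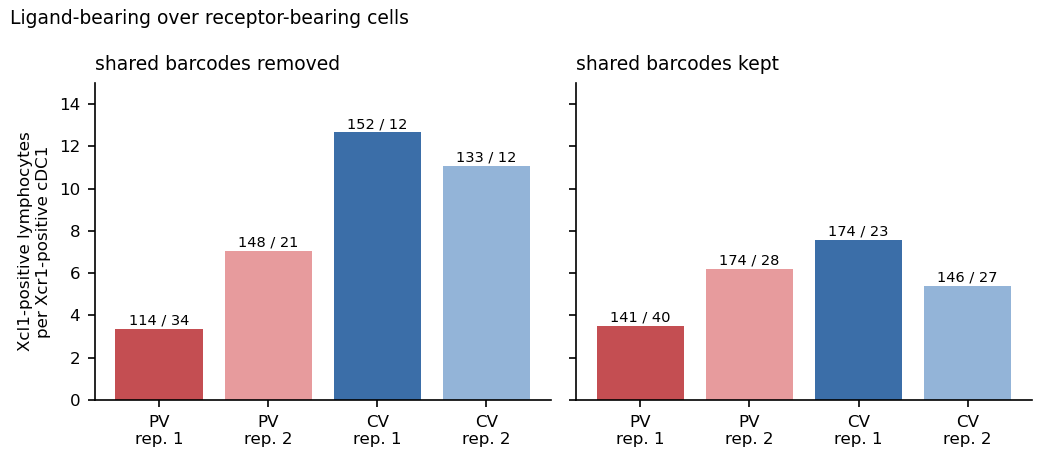
Xcl1-positive T and NK/ILC1 cells per Xcr1-positive cDC1 (vertical axis) in each library (horizontal axis), with barcodes found in several libraries removed (left) or kept (right); the numbers above the bars are the counts of both kinds of cell. With these barcodes removed the PV libraries (3.35 and 7.05) lie below the CV libraries (12.7 and 11.1), and with them kept the zones overlap.

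Xcl1-positive and Xcl1-negative T cells of the same library were compared after thinning to 2500 UMIs, with Xcl1 left out. Positive cells numbered 58 and 82 in PV, against 88 and 64 in CV, and negative cells 132 and 118 in PV, against 70 and 88 in CV at this depth. In edgeR, 33 of 2762 genes passed (1.19%), 7 higher and 26 lower in positive cells, 296 had an unadjusted p under 0.05 and DESeq2 called 43. Without CV replicate 1 only 6 passed, and without PV replicate 2 20 passed.

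Of the 7 genes higher in Xcl1-positive T cells, 6 are named here, among them the chemokine and cytokine genes Ccl4, Ccl5 and Ifng. Ccl4, a chemokine that attracts monocytes and T cells, had the largest rise, at 1.50 ± 0.32 on the log2 scale. It was at 193 and 327 CPM in positive against 9.09 and 193 CPM in negative cells of PV, and at 132 and 156 CPM against 34.3 and 50 CPM in CV, higher on the positive side in 4 of 4 libraries. Dusp2, a phosphatase induced on activation, rose by 0.97 ± 0.14 on the log2 scale. Its levels were 434 and 634 CPM in positive against 270 and 275 CPM in negative cells of PV, and 436 and 512 against 200 and 232 CPM in CV, with no overlap. Cd160, an immunoglobulin-like receptor of cytotoxic lymphocytes, had 0.88 ± 0.18 and Ifng 0.84 ± 0.20. The GTPase gene Gimap5 had 0.60 ± 0.14 and Ccl5 0.43 ± 0.09. The same sign in every library was a condition for naming a gene, Ccl4 and Dusp2 included, so it is no separate result. Ifng was close in CV replicate 2, at 287.5 CPM in positive against 272.7 CPM in negative cells (46 and 60 UMIs). The edgeR adjusted p of these 6 genes lay between 0.00215 and 0.0468.

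Of the 7 recirculation and quiescence genes tested, 4 were lower in Xcl1-positive cells and all 7 lay below 0, with a median of -0.68, beside 0.00 for all genes. Lef1 and Tcf7, transcription factors of naive T cells, had log2 fold changes of -1.47 ± 0.25 and -1.21 ± 0.25. Il7r, the receptor for the survival cytokine interleukin 7, had -0.68 ± 0.13, and Klf2, a factor that keeps T cells quiescent and in circulation, had -0.93 ± 0.21. These were the 4 that passed. Also lower were the sodium pump gene Atp1b3 (-1.42), the signalling regulator Rgs10 (-1.39), the glucocorticoid-induced Tsc22d3 (-1.15) and the membrane protein gene Emp3 (-1.05). Apoe (-2.11 ± 0.30) and the MHC class II chaperone gene Cd74 (-1.40 ± 0.33), products of myeloid and B cells, were lower as well. Apoe was nearly level in PV replicate 1, at 20.7 CPM in positive against 21.2 CPM in negative cells (3 and 7 UMIs). It had no value in a fit without T cells holding 3 or more markers of another lineage. Ccl4 (1.56), Dusp2 (1.01), Lef1 (-1.47) and Il7r (-0.68) passed in that fit. The part of Apoe and Cd74 from other cells in the comparison was otherwise not tested. Of 82 tested genes of cytoplasmic ribosomal proteins, 14 passed, all lower, by 0.24 to 0.38 on the log2 scale. Over all genes 33 of 2762 passed (1.19%). The ribosomal protein genes were added with their values in view, so their count is a description only.

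Of 11 tested lymphocyte chemokine and cytokine genes, all 11 lay above 0 with a median of 0.53, and Ccl4, Ccl5 and Ifng passed, with Cd40lg next (0.66 ± 0.16, edgeR adjusted p = 0.0528). Of 15 innate-like and cytotoxic genes, 13 lay above 0 (median 0.44) and Cd160 passed, with Cd7 next (1.19 ± 0.29, adjusted p = 0.0519). None of 13 activation and immediate response genes passed (11 above 0, median 0.24), nor any of 7 residency genes (6 above 0, median 0.26). Over all 2762 genes 1.19% passed and the median was -0.0041. The lists were chosen with earlier results of these data known, so these counts are descriptions. Within Cxcr6 T cells with NKT genes, no gene of these lists passed. There 8 of 8 cytokine, 8 of 13 innate-like, 9 of 12 activation and 4 of 7 residency genes lay above 0. Their medians were 0.42, 0.07, 0.40 and 0.17.

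Fewer genes passed when kinds of T cell were held apart. Naive-like cells, of which 0 of 7 and 0 of 26 in PV, against 0 of 9 and 1 of 23 in CV were positive at this depth, sat almost wholly on the negative side. With them left out, 2 of 2496 genes passed, Dusp2 (0.92 ± 0.14, adjusted p = 0.00363) and Apoe (-2.35, adjusted p = 0.00155). Apoe, as said above, had no value once cells with markers of another lineage were left out. Ccl4 (1.26), Cd160 (0.69), Atp1b3 (-0.88), Emp3 (-0.78) and Rgs10 (-1.07) kept their sign without passing. So did Ifng (0.63), Gimap5 (0.48) and Ccl5 (0.25, from 0.43 over all T cells). Tcf7 (-0.31), Tsc22d3 (-0.39) and Il7r (-0.29) kept it too, at a smaller size than over all T cells (-1.21, -1.15 and -0.68). Lef1 is among the genes that define the naive-like cells, so its value without them is not compared. Within Cxcr6 T cells with NKT genes, 0 of 1881 genes passed in edgeR and 102 had an unadjusted p under 0.05. There Ccl4 had 1.34 ± 0.38 (adjusted p = 0.432), Ifng 1.01 ± 0.21 and Dusp2 0.85 ± 0.17 (both 0.0810), close to their values over all T cells, and Cd160 had 0.41 ± 0.20, Gimap5 0.41 ± 0.16 and Il7r 0.13 ± 0.17 and the ribosomal protein genes a median of 0.03. These subsets were chosen after the first result was seen.

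**Figure D5:**
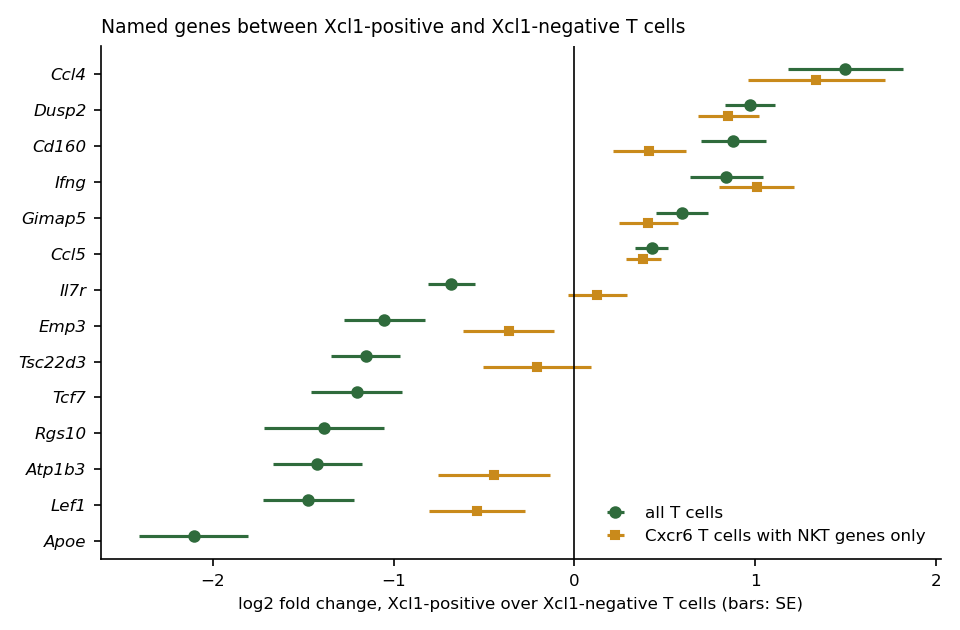
Log2 fold change of Xcl1-positive over Xcl1-negative T cells (horizontal axis, bars are standard errors) for the named genes past the test (vertical axis), over all T cells (circles) and within Cxcr6 T cells with NKT genes (squares, where the gene could be tested). The 6 genes higher over all T cells have values above 0 in both, from 0.38 to 1.50, though none passes the test within the subset, and Il7r is at -0.68 over all T cells and 0.13 within the subset.

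The same split of NK/ILC1 cells could not be fitted at 2500 UMIs, because 1 library had at least 5 cells on both sides.

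Across 33 sums of a class in a library, from 10 classes, some genes followed the members closely. The measure was Pearson's r of log2(CPM + 20), given as a description, since sums of a library share their depth and zone. The 6 genes most like Xcl1 among 10781 were Cd160 (0.984), the apolipoprotein L gene Apol7e (0.981), the inhibitory receptor gene Klrc1 (0.975), the cytotoxic granule gene Nkg7 (0.975), Klrb1c (0.974), which is a gate marker, and Tbx21 (0.973). Tbx21 was at 48.7 to 60.6 CPM in T cells and 72.0 to 135 CPM in NK/ILC1 cells. Those most like Xcr1 were the orphan receptor gene Gpr141b (0.991), Ttc39a (0.988), Proser2 (0.986), the gate marker Snx22 (0.984), the integrin gene Itgae (0.984) and the septin gene Sept3 (0.983). Gpr141b was at 116 to 151 CPM in cDC1 and at most 2.84 CPM in T cells.

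Of 23 chemokine receptor genes, 2 were detected in at least 10% of cDC1 in every library at equal depth, namely Xcr1 and Ccr2, with Ccr2, a receptor for monocyte chemokines, in 65.7% and 54.2% of cDC1 in PV, against 69.2% and 64.3% in CV. In T cells the receptors that reached that share included Cxcr6 (84.2% and 69.5% in PV, against 70.9% and 67.1% in CV), Cxcr3 and Ccr2, the last in 43.2% and 41.0% of T cells in PV, against 42.4% and 36.2% in CV. In NK/ILC1 cells they included Cxcr6 and Cxcr3. B cells drawn to the same depth had no UMI of Xcr1 or Ccr2, and Cxcr6 and Cxcr3 in at most 1.85% and 3.33% of cells of a library. Of 34 ligand genes, T cells reached it with Xcl1 and Ccl5, and NK/ILC1 cells with Xcl1, Ccl3, Ccl4 and Ccl5. The cDC1 reached it with Cxcl16, the ligand of Cxcr6, in 25.7% and 20.8% of cells in PV, against 23.1% and 28.6% in CV, and at most 4.65% of B cells of a library had it.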

How the data were processed

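CD45+ liver cells were profiled in 4 libraries with the 10x Chromium 3′ v3.1 chemistry, per the labels' protocols. Per library, the authors deposited a matrix of raw counts of UMIs, with genes as rows and barcodes as columns. Cell Ranger 4.0.0 and mm10 were used, per the submitters' processing notes; the sources used here do not give the annotation or the cell calling. Total counts were 3063778 and 4373488 in PV and 2741760 and 2916638 in CV. The summed libraries of a zone differed beyond sampling noise (chi-square per degree of freedom 17.3 in PV, 10.4 in CV) and were treated as separate. Symbols were matched for 32158 of 32285 identifiers, and positions come from GENCODE M21.

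Cells needed at least 200 genes, at most 10% mitochondrial UMIs and, for barcodes in several libraries, 70% of their UMIs in the library. A cell took the class with the most detected markers, at least 3 of 8; ties were unassigned. No doublet caller was run, and cells with 3 or more markers of another lineage were left out as an alternative. Counts were summed per library and class of at least 10 cells each and tested with edgeR 4.0.16 in R 4.3.3 (quasi-likelihood, TMM, filterByExpr, Benjamini-Hochberg, threshold 0.05), after the fits were tested on simulated data. DESeq2 1.42.0 was the alternative. Positive and negative cells were summed after thinning with the library as block. Alternatives covered the cell and gene filters, marker minimum, thinning depth (1500), scaling and single libraries.

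Members, marker lists and gene lists were chosen with earlier results of these data known. Named were, per test, up to 8 genes past it in each direction with the largest change and 1 sign in every library (gene models left out), or else the 5 smallest p; per list, up to 4 members by p; and the 6 genes most like each member. Fixed lists not described above had 0 to 2 members past the test. The ribosomal protein genes were added with their values in view. Some members of the fixed gene lists are not reported here by name.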

Additional observations from a re-analysis of the deposited data

How the results depend on the processing

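The 2 libraries per zone, few NK/ILC1 cells and cDC1, and 282 shared barcodes limit what can be resolved, and depth limits which cells show Xcl1 or Xcr1 at all. Between the zones, Xcl1 in T cells had log2 fold changes of -1.04 to -0.60 when 1 library was left out. It passed edgeR's test without PV replicate 1 (-0.93, adjusted p = 0.0245), CV replicate 1 (-1.04, adjusted p = 2.25e-08) and CV replicate 2 (-0.60, adjusted p = 0.0400), fits with 1 residual degree of freedom and a lone library assumed to vary like the other zone; the cause was not tested. Xcl1 in NK/ILC1 cells ranged from -1.01 to 0.024, Xcr1 in cDC1 from -0.32 to 0.27 and Xcr1 in all cells from -0.088 to 1.58, while Xcl1 in all cells stayed between -1.64 and -0.96. Without the gene filter, Xcl1 in all cells (-1.25) and Xcr1 in all cells (0.97) passed. Xcr1 in cDC1 changed sign around 0 with 4 markers (0.0017), no filter (0.045) and shared barcodes kept (0.0031). The share of cDC1 with Xcr1, PV minus CV, was 3.31 percentage points without thinning and -10.8 to 8.39 with 1 library left out.

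Genes between Xcl1-positive and Xcl1-negative T cells numbered 6 to 34 with 1 library left out, 139 without thinning, 88 without the gene filter, 62 without cells holding 3 markers of another lineage, 2 without naive-like cells and 0 within Cxcr6 T cells with NKT genes; these last settings, from 62 on, were added after seeing the data, as was leaving out the top cell. In cDC1 split by Xcr1 the count was 0 to 5 with 1 library left out, 2 without the filter, 2 at 1500 UMIs and 5 with shared barcodes kept. With the replicate block, Xcl1 had -0.82 in T cells (edgeR adjusted p = 0.419) and -1.29 in all cells, and no call of Xcl1 or Xcr1 changed; equal numbers correlated by 0.199 in T cells and 0.186 in cDC1, -0.0065 in NK/ILC1 cells and 0.028 in all cells, so they are not shown to pair. The block gave 34 genes in cDC1 in place of 0. NK/ILC1 cells split by Xcl1 gave 11 of 379 genes without thinning and 0 of 234 at 1500 UMIs. Stricter cell limits in NK/ILC1 cells and leaving out cDC1 with markers of another lineage were not run, for lack of cells.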

Other observations

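In cDC1, Cd207, the gene of the lectin langerin, had the smallest p of the 17 tested cDC1 genes outside the gate, with a log2 fold change of -3.08 ± 0.56 for PV over CV (edgeR adjusted p = 0.211). Of these 17 genes, 5 lay above 0 and 12 below, with a median of -0.15, beside 0.01 over all genes, and none passed. Of 15 genes of antigen presentation and dendritic cell output in the same cells, 13 lay above 0 with a median of 0.24. The largest was Cxcl9, a chemokine for CXCR3-bearing lymphocytes, at 6.24 ± 1.31 (edgeR adjusted p = 0.287). The summed Kupffer cell markers of these cDC1 were at 8.19 and 886 CPM in PV, against 3.83 and 14.6 CPM in CV, and 18 of 35 and 15 of 24 cDC1 in PV, against 5 of 13 and 10 of 14 in CV, held 3 or more markers of another lineage; their part in these values was not tested.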
